A study of Mus musculus with 95 samples.

Results

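PCGF3 is a core subunit of a variant Polycomb repressive complex 1 (PRC1), and the regions described here are the 223 peaks of the PCGF3 chromatin immunoprecipitation (ChIP-seq) list of wild-type mouse embryonic stem cells, out of 1189711 peaks in the 80 lists of the series. They were chosen by the authors' own peak call in that 1 library, so their PCGF3 enrichment is a description and was not tested. Of the 223, 20 were also overlapped by the Pcgf3 list of cells that lack PCGF3 and PCGF5, and these are kept apart in what follows. The weakest of the 223 had a −log10 p of 10.08 and no peak under −log10 p 10 was listed in any of the lists, so no region just outside the threshold can be shown.

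PRC1 is built from RING1A or RING1B, the ubiquitin ligases that modify a lysine of the histone H2A tail, and from 1 of several PCGF proteins, which decide where and with which partners the complex works. PCGF3 and PCGF5 share partners such as AUTS2 and casein kinase 2, and PCGF6 works with MGA, MAX, L3MBTL2 and E2F6 at germline genes. USF1 and USF2 are basic helix-loop-helix leucine zipper proteins that bind as dimers to the E-box, the palindrome CACGTG, and are abundant in most cell types. H3K4me3 marks active and poised promoters, and H3K36me3 marks the bodies of transcribed genes.

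All cells were E14 embryonic stem cells or lines made from them, grown on gelatin with serum, leukemia inhibitory factor and inhibitors of GSK3β and MEK. The knockout lines used here (Pcgf1-/-, Pcgf2/4-/-, Pcgf3/5-/-, Pcgf6-/- and Pcgf3/5/6-/-) are clones edited with Cas9, and double and triple knockouts were made by editing single knockout clones again. The Ring1a-/-_Ring1bfl line lacks RING1A and carries a conditional Ring1b allele with the tamoxifen-dependent CreERT2, and Ring1a/b-/- lacks both proteins. For knockdown, cells received lentiviral shCtr, shUsf1 or shUsf2 hairpins, were selected with puromycin and were grown for 72 hours. How far USF1 and USF2 fell after knockdown was not analysed here. Each ChIP-seq list used here comes from 1 library, so peak values have no replicate error, and each share of peaks is given with a 95% Wilson interval that covers counting error only. RNA-seq libraries were 2 per genotype, and the labels do not say whether they came from separate cultures, so their p-values measure the spread between these libraries only.

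The strongest PCGF3 peaks lay on E-boxes, which the sequences around their summits show. The summit window is the summit base with 50 bases on either side. The stretches below are the summit windows of 5 of the strongest PCGF3 peaks, on the plus strand of mm9, trimmed to the bases outside annotated exons, with every CACGTG in capitals. The peaks are named by the nearest protein-coding start.

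Atp6v0b, chr4:117559939-117560012: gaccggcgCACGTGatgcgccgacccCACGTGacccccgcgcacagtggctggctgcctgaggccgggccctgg
Dync1h1, chr12:111829903-111830003: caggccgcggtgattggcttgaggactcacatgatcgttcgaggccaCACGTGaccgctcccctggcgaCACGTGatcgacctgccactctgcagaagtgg
Cdk4, chr10:126500424-126500524: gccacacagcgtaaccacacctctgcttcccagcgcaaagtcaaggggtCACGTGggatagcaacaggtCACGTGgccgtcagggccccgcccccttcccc
Cnppd1, chr1:75139272-75139348: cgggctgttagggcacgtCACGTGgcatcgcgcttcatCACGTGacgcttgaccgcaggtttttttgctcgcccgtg
Igf2r, chr17:12962567-12962667: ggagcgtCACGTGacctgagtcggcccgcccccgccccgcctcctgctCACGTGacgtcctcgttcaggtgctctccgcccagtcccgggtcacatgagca

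A pair of E-boxes stood in each of the 5 stretches. Over all 223 peaks, 145 (65%, 95% Wilson interval 58.6 to 71) held at least 1 CACGTG in the summit window and 182 (81.6%) within 150 bases of the summit. The summit window held it at 68% of the 9457 USF1 peaks that overlap no PCGF3 peak, at 12.2% of the 1792 PCGF6 peaks that overlap none, at 1.76% of H3K4me3 peak summits and at 3.32% of 22352 protein-coding gene starts. The palindrome reads the same on both strands, so each site was counted once. Within 150 bases of the summit a site stood at 75.6% of the other USF1 peaks, and at 91.5% (86.7 to 94.6) of the 199 PCGF3 peaks outside the runs of neighbouring peaks described below, of which 72.9% had one in the summit window. At least 2 E-boxes in the summit window were found in 66 of 223 PCGF3 peaks and in 318 of the 9457 other USF1 peaks. The median fold enrichment of PCGF3 over background was 7 at the 78 peaks with no E-box in that window, 7.91 at the 79 with 1 and 11.24 at the 66 with 2 or more. The 78 include all 24 peaks of the runs, and at the other 54 the median was 7.3. Of 326 E-boxes within 150 bases of a PCGF3 summit, 226 lay within 50 bases and 142 within 25.

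**Figure D1:**
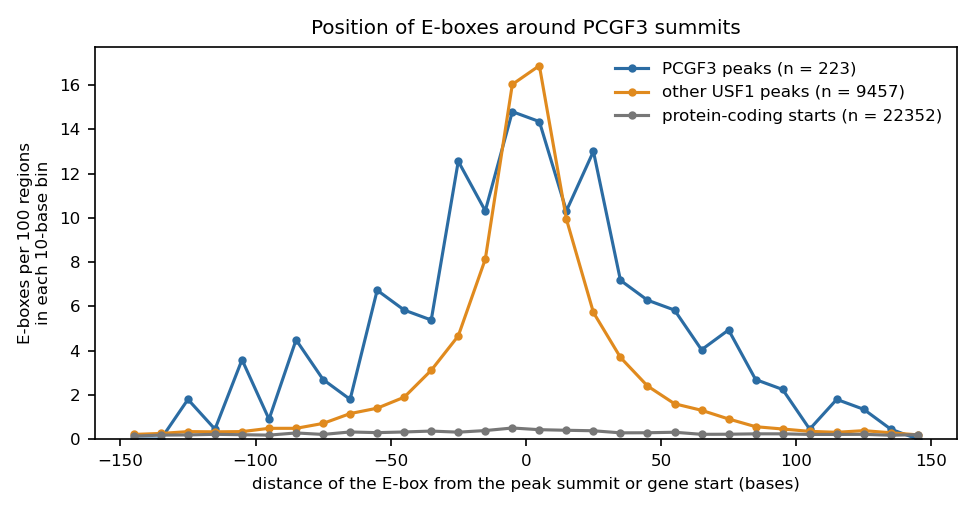
E-boxes per 100 regions in 10-base bins (vertical axis) against distance in bases from the peak summit or gene start (horizontal axis), for the 223 PCGF3 peaks, the 9457 USF1 peaks that overlap none of them and 22352 protein-coding starts. Both peak sets are highest near the summit; the USF1 set is the higher one at the summit itself and the PCGF3 set is higher in most bins on both flanks.

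Several runs of neighbouring peaks stood apart from the rest, and the values that move most without them are given both ways. A run was taken as at least 3 peaks with gaps of at most 50 kb. The largest holds 14 peaks on chrX:166410177-166437481 of mm9, close to the end of a chromosome of 166650296 bases, over Mid1 (which spans the pseudoautosomal boundary in the reference mouse strain) and Gm17379. A second holds 6 peaks on the mitochondrial genome and the third 4 peaks on chr17:39980848-39985281, which lie 360433 to 364248 bases from their nearest start and have PCGF3 folds of only 1.69 to 1.81. None of these 24 peaks has a CACGTG within 150 bases of its summit. All 24 were also in at least 1 of 3 lists made with an antibody in cells that lack its target: Pcgf1 in Pcgf1-/-, Pcgf2 in Pcgf2/4-/- and Pcgf6 in Pcgf6-/-. Of the other 199 peaks, 42 were in such a list. The X-chromosome run supplied 11 of the 20 PCGF3 peaks that remained in the Pcgf3 list of Pcgf3/5-/-.

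The remaining 9 peaks called without PCGF3 and PCGF5 were among the strong ones, and none was as high there as in wild-type cells. At Atp6v0b, a subunit of the membrane part of the proton pump that acidifies lysosomes, the authors' fold was 32.49 in wild-type and 13.23 in Pcgf3/5-/-. At Dync1h1, the heavy chain of cytoplasmic dynein, it was 26.03 and 7.29, at a summit 9709 bases upstream of the annotated start. At Cdk4, the cyclin D-dependent kinase of the G1 phase, it was 24.35 and 6.39. The peaks at Mfsd1, Spns1 and Lamtor1, all known for lysosomal membrane proteins, had 20.32 against 7.15, 20.06 against 8.11 and 14.68 against 6.38. The peaks at Zbtb40 and Dpp3 had 19.78 against 7.68 and 14.21 against 8.53. In contrast, the X-chromosome peaks had folds of 4.54 to 13.68 in wild-type and up to 11.37 in the knockout list. The knockout list held 21 peaks in all, of which 17 overlapped a wild-type peak. Of the 9 peaks outside the runs, 6 were in at least 1 of the 3 other lists made in cells that lack the antibody's target, against 42 of 199.

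PCGF3 peaks sat at gene starts. The summit of 178 of the 223 (79.8%, 74.1 to 84.6) lay within 2.5 kb of a protein-coding start, 166 within 1 kb and 105 within 100 bases. The median distance among the 178 was 71 bases, with 121 summits upstream and 56 downstream of the start. Outside the runs it was 161 of 199. By the same measure 36.6% of USF1 peaks and 64.7% of PCGF6 peaks were at starts. At 27 PCGF3 peaks, starts of genes on opposite strands lay within 1 kb of the summit. Of the 45 peaks away from starts, 21 were in introns, 2 in exons and 22 between genes, and 30 of the 45 still overlapped H3K4me3. Among these was the Dync1h1 peak, with an H3K4me3 fold of 77.1. Peaks were short, with a median of 312 bases and a range of 200 to 1505.

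USF1 covered nearly all of them. In wild-type cells, 205 of 223 PCGF3 peaks overlapped a USF1 peak by at least 1 base (91.9%, 87.6 to 94.8), and 192 of the 199 outside the runs. USF1 itself had 9659 peaks, of which 202 overlapped a PCGF3 peak, or 2.09% of that list. Those 202 were the strong ones: their median USF1 fold was 51.5, against 8.45 at the other 9457. Of the 500 highest USF1 peaks, 164 overlapped a PCGF3 peak. At Atp6v0b the USF1 fold was 90.3. The summits of both proteins lay a median of 26 bases apart, and within 50 bases at 154 of the 205. Of the 18 PCGF3 peaks without USF1, 11 were in the runs. The other 7 included Zcwpw1, Hdac2 and Zfp280d, and Hdac2 alone of the 18 had an E-box in the summit window.

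**Figure D2:**
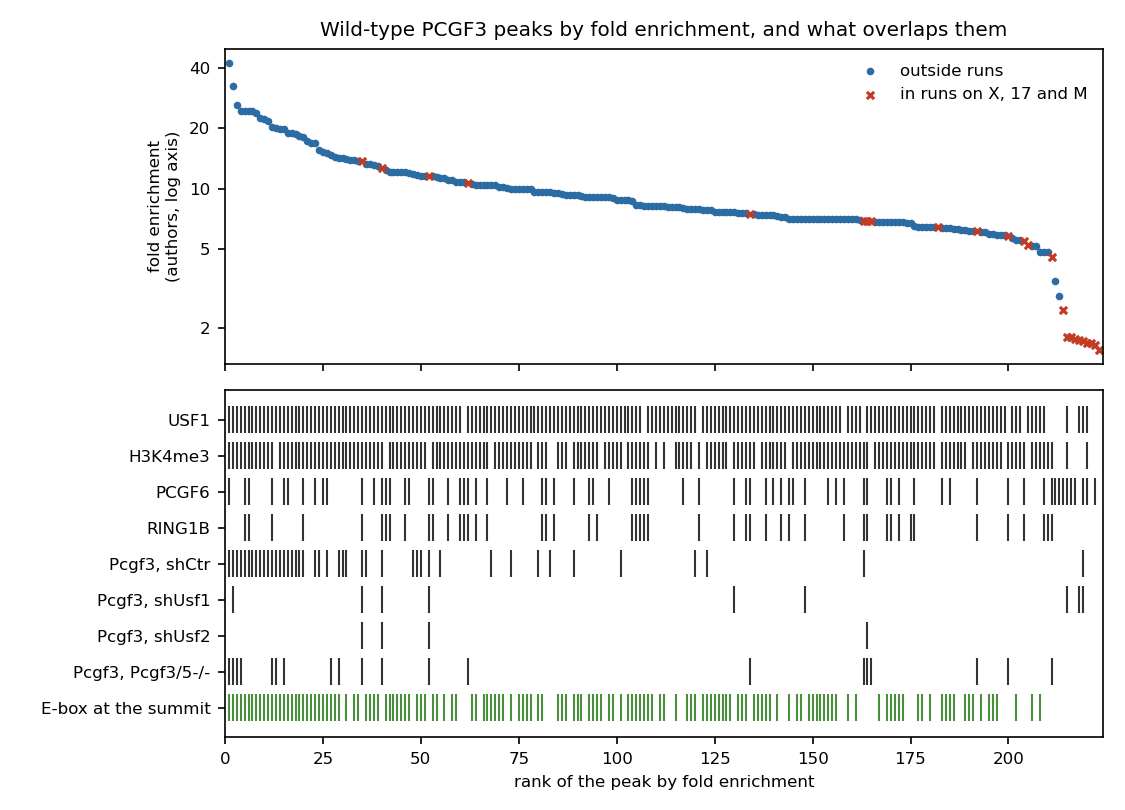
Top, authors' fold enrichment (log axis) of each of the 223 PCGF3 peaks by rank, with crosses for the 24 peaks in the runs on X, 17 and M. Bottom, a bar for each peak that overlaps the named list or holds an E-box in the summit window. The USF1 row is nearly full except at the lowest folds, and the shCtr row is dense only on the left.

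H3K4me3 overlapped 189 of the 223 peaks (84.8%, 79.5 to 88.9) and H3K36me3 20 (8.97%, 5.88 to 13.4). Of those 20, 14 were X-chromosome peaks. The other 6 were near Spns1, Srsf3, Bcat1, Pfkm, Dyrk1b and 1700010L04Rik. USF1, H3K4me3 and a start within 2.5 kb came together at 154 peaks. The repressive mark H3K27me3 overlapped 19 and the PRC2 subunit SUZ12 30, or 12 and 15 of the 199 outside the runs. RING1B, the catalytic partner of all PRC1 forms, overlapped 49 of 223 (22%, 17 to 27.9) and 38 of the 199 outside the runs. H2AK119Ub1, the mark it writes, overlapped 13 of 223 and 4 of the 199. WDR5, a subunit shared by MLL complexes and PRC1.6, overlapped 83 of 223 and 59 of the 199.

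PCGF6 overlapped 75 of the 223 (33.6%, 27.8 to 40.1) and 57 of the 199 outside the runs, and 46 of the 49 peaks with RING1B were among these 75. Of the 75, 32 were also in the Pcgf6 list of Pcgf6-/- cells, 18 of these 32 within the runs, and 43 were not. An E-box in the summit window was found at 39 of the 75 peaks with PCGF6 and at 106 of the 148 without, or outside the runs at 39 of 57 and 106 of 142. The PCGF6-covered peaks included the germline genes Zcwpw1 (PCGF6 fold 40.5, PCGF3 fold 10.74), Stag3 (27.1 and 10.46), Hormad1 (18.5 and 8.31) and Stk31 (11.5 and 4.83), whose products act in meiosis or in germ cells. At Zcwpw1, a histone reader of meiotic recombination, USF1 was not called and no CACGTG stood within 150 bases. The 30 bases around the E2F-type sequence there (GCGGGAA, in capitals; TTCCCGC on the other strand) are shown because this peak has PCGF3 and PCGF6 without an E-box.

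Zcwpw1, chr5:138229070-138229099: cttctcctggtgGCGGGAAaagttgctcga

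That sequence, on either strand, was present in the summit window of 9 of 223 PCGF3 peaks (4.04%), 3.96% of PCGF6 peaks that overlap no PCGF3 peak and 2.16% of protein-coding starts.

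Of the gene lists, that of the lysosome held the most genes with a PCGF3 summit. Lysosomes are the acidic compartments in which hydrolases degrade macromolecules, and their acid is kept by the vacuolar proton pump. Of the 25 genes in the lysosome and V-ATPase list, 9 had a PCGF3 summit within 2.5 kb of a start and 22 had a USF1 summit there, against 183 and 3466 of all 20281 protein-coding genes that could be matched (0.902% and 17.1%). Among them were Ctsa, Ctsd, Gla, Hexa, Lamp1, Mcoln1, Atp6v1h and Atp6v1c1. Germline genes had 4 of 22 (Hormad1, Stag3, Stk31 and Zcwpw1) and the PCGF6 complex list had 1 of 14 (Hdac2). No gene of the PCGF3/5 complex, E-box factor, ribosome biogenesis or mitochondrial translation lists had one. E-boxes at the lysosomal starts are shown with the same capitals, cut to 30 bases around 1 site where it lies in or beside an annotated exon. In the full summit window Lamp1 and Mcoln1 have 2 E-boxes each. The Gla peak is closer to the start of Hnrnph2, its neighbour on the other strand.

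Hexa, chr9:59387476-59387505: ctgaccggggctCACGTGggctcagcctgc
Lamp1, chr8:13159134-13159163: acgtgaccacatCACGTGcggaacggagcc
Ctsa, chr2:164659266-164659295: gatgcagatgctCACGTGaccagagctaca
Mcoln1, chr8:3500404-3500456: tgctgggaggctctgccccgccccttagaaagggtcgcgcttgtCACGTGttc
Atp6v1h, chr1:5073110-5073210: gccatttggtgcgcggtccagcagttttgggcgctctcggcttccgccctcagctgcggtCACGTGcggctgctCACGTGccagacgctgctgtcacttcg
Atp6v1c1, chr15:38591682-38591711: tgctccggctggCACGTGacttgctctggg

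These stretches were chosen to show an E-box, several of them cut around it, so its presence in each follows from that choice. The flanks differ from gene to gene. The PCGF3 folds of these peaks ran from 19.04 at Hexa, the alpha subunit of beta-hexosaminidase, and 18.72 at Lamp1, the lysosomal membrane glycoprotein, through 18.24 at Ctsa (cathepsin A), to 13.74 at Mcoln1 (the TRPML1 channel), 12.15 at Atp6v1h and 9.89 at Atp6v1c1 (both subunits of the cytosolic part of the pump). The peak at Ctsd (cathepsin D), with a fold of 9.04, had no CACGTG in the summit window, and 2 within 150 bases of the summit, with a USF1 fold of 67.3.

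After the control hairpin, PCGF3 was called at far fewer places than in untreated wild-type cells, and after shUsf1 and shUsf2 at fewer still. The shCtr list had 44 peaks, of which 43 overlapped a wild-type peak. It covered 44 of the 223 (19.7%, 15 to 25.4). The shUsf1 list had 11 peaks and covered 9 of the 223 (4.04%, 2.14 to 7.49). The shUsf2 list had 5 and covered 4 (1.79%, 0.7 to 4.52). With 1 library each and no depth in these lists, the smaller number of calls cannot be told apart from a less efficient immunoprecipitation or a shallower library.

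Which peaks were kept differed by kind. Outside the runs, 39 of 199 peaks were in the shCtr list, 3 (1.51%) in the shUsf1 list and 0 of 199 in the shUsf2 list. Of the 39, 38 were in shCtr alone of the 3. In the runs, 5 of 24 peaks were in shCtr, 6 in shUsf1 and 4 in shUsf2, and none of these peaks has an E-box. The 39 had a median wild-type PCGF3 fold of 18.09 and a median USF1 fold of 71.3, and 35 held an E-box in the summit window. Of the 39, 17 were in at least 1 of the 3 lists made with an antibody in cells that lack its target, against 42 of the 199.

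At Atp6v0b the PCGF3 fold was 32.49 in wild-type, 13.8 after shCtr and 5.50 after shUsf1, and the peak was not listed after shUsf2. Atp6v0b was the single peak outside the runs that stayed listed after both shCtr and shUsf1. The peaks at Dync1h1 (10.8 after shCtr), Zmym6 (9.54), Clcn6 (9.43), Cdk4 (7.76), Amdhd2 (7.5), Cnppd1 (6.78), Igf2r (6.52) and Bax (5.57) were listed after shCtr and after neither USF hairpin. Clcn6 is a late endosomal chloride-proton exchanger and Igf2r the receptor that carries mannose-6-phosphate-tagged enzymes to lysosomes. Bax drives mitochondrial outer membrane permeabilisation in apoptosis. Of the lysosomal peaks, Hexa (6.78), Lamp1 (5.75) and Ctsa (5.59) followed the same course, and Mcoln1, Atp6v1h, Atp6v1c1 and Ctsd were in none of the 3 lists.

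Peaks listed after shUsf1 but not after shCtr were Akap11 (5.24, wild-type 7.06), Rpp21 (5.55, wild-type 7.59, 24953 bases from the start) and 2 on chromosome 17 within a run. Neither Akap11 nor Rpp21 had an E-box in the summit window. Both were also in the Pcgf6 list of Pcgf6-/- cells, with folds of 7.36 and 11.45 there. That list also held 14 of the 39 shCtr peaks outside the runs, and 29 of all 199 peaks outside the runs. In the X-chromosome run the peak over Mid1 at chrX:166415712-166417177 had PCGF3 folds of 13.68 in wild-type, 5.81 after shCtr, 6.02 after shUsf1 and 5.42 after shUsf2, and 11.24 in Pcgf3/5-/-.

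The peaks that were in shCtr were mostly those of high wild-type fold, with a median of 15.26, against 7.57 at those not in shCtr. With the peaks split by wild-type fold into 4 groups, from the lowest up, the shCtr list covered 1 of 56, 3 of 56, 6 of 55 and 34 of 56 peaks. The shUsf1 list covered 3, 2, 0 and 4, and the shUsf2 list 0, 1, 0 and 3.

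In cells that lack other PRC1 subunits the PCGF3 peaks were called to very different extents. The Pcgf3 list of Pcgf6-/- covered 201 of 223 (90.1%, 85.5 to 93.4), from a list of 612 peaks. That of Pcgf2/4-/- covered 104 (46.6%, 40.2 to 53.2) from 117 peaks, and that of Pcgf1-/- covered 60 (26.9%, 21.5 to 33.1) from 387. The Ring1a-/-_Ring1bfl list covered 77 (34.5%, 28.6 to 41) from 122, and the Ring1a/b-/- list 30 (13.5%, 9.59 to 18.6) from 84. Of the 44 peaks in shCtr, 42 were in the Pcgf6-/- list and 20 in the Ring1a/b-/- list. At Atp6v0b, the fold was 28.5 in Pcgf6-/- and 12.9 in Ring1a/b-/-. Of the 387 peaks without PCGF1, 15.5% overlapped a wild-type PCGF3 peak, and of the 117 without PCGF2 and PCGF4, 86.3%. Each list is 1 library of unknown depth, and the part of list size or of the lost subunit in these shares was not tested.

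**Figure D3:**
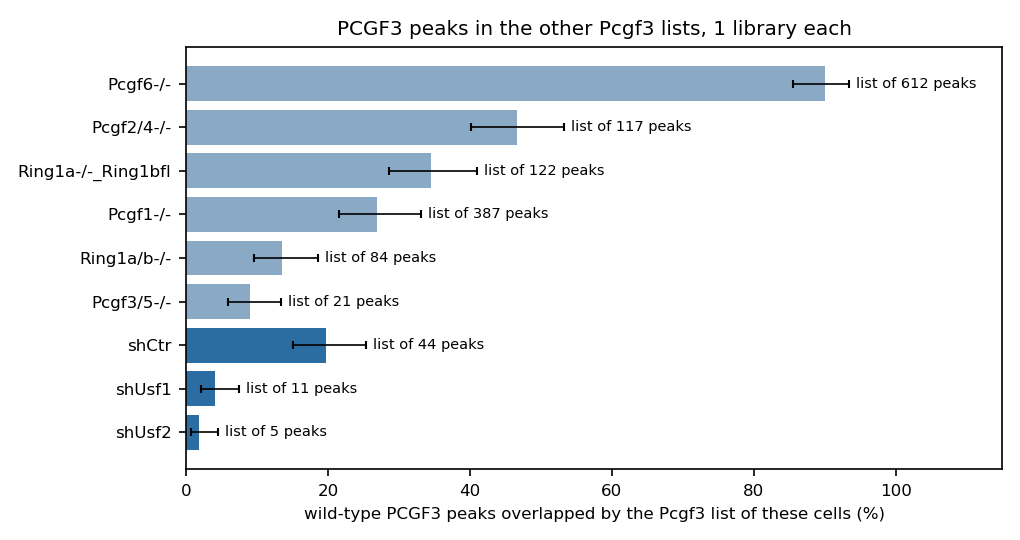
Share of the 223 wild-type PCGF3 peaks (%) that each other Pcgf3 list overlaps, with 95% Wilson intervals as bars and the size of each list beside them; 1 library each. Pcgf6-/- covers 90.1%, shCtr 19.7%, Pcgf3/5-/- 8.97%, shUsf1 4.04% and shUsf2 1.79%.

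To see whether the genes at these peaks change when PCGF3 and PCGF5 are lost, the RNA-seq counts of Pcgf3/5-/- were compared with wild-type. The 14 libraries held 2147968 to 7848161 counts, and the 4 compared first held 5295194 to 7099900. The 2 wild-type libraries differed by less than the sampling noise (chi-square per degree of freedom 0.958), unlike those of Pcgf3/5-/- (5.31) and those labelled Pcgf3/5/6-/- (1.19). They may be 1 library, so the main counts of calls are given also with both summed into 1 sample. The embryonic stem cell markers were all expressed, with a summed level of 2014 and 2019 CPM (counts scaled to library size) in wild-type and 1972 and 2341 in Pcgf3/5-/-. Trophoblast markers, with Krt8 and Cdx2 highest in wild-type, summed to 199 and 212 in wild-type, 273 and 252 in Pcgf3/5-/- and 853 and 873 in the libraries labelled Pcgf3/5/6-/-. In the latter Cdx2 was lower (71.1 and 77.8 CPM in wild-type against 18.6 and 20.3) and Krt8 higher (95.6 and 103 against 560 and 594). Of the 5 primitive endoderm markers Gata6, Sox17 and Foxa2 were too low to test, Gata4 was at 0 in all 4, and the list summed to 0 in both wild-type libraries and to 0.802 and 0.959 in Pcgf3/5-/-. Fibroblast markers summed to 10.6 and 7.45 in wild-type and 17.6 and 12.3 in Pcgf3/5-/-. The part of other cells in the changes below was not tested, and in bulk RNA fewer cells of a type and less RNA per cell cannot be told apart.

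The targeted genes were not silent at the RNA level. Pcgf3 was at 16.4 and 15.5 CPM in wild-type and 11.4 and 12.8 in Pcgf3/5-/- (log2 change −0.40 ± 0.23 SE, edgeR adjusted p = 0.242). Pcgf5 was at 13 and 10.8 against 5.48 and 4.6 (−1.22 ± 0.23, edgeR adjusted p = 0.00175). Where the edits lie in these genes is not given in the sources used here, so total counts per gene do not check them. Usf1 was at 149 and 149 in wild-type and 133 and 144 in Pcgf3/5-/-, and Usf2 at 15.1 and 18.3 against 16.7 and 14; neither passed the test, with edgeR adjusted p of 0.666 and 0.786. Pcgf6 was at 36.2 and 34.3 against 23.3 and 23.4 (−0.60 ± 0.14, edgeR adjusted p = 0.00826).

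The share of genes nearest to PCGF3 peaks that passed the test in Pcgf3/5-/- was close to that of all genes. Of 160 genes of the count table that were nearest to a peak within 2.5 kb, 158 had enough reads to be tested. In edgeR's quasi-likelihood fit, with p adjusted over all 15464 genes by Benjamini-Hochberg, 32 of the 158 (20.3%) had an adjusted p below 0.05, against 21.6% of all genes tested. Of the 32, 14 were raised (8.86%, against 11.1% of all genes) and 18 lowered (11.4%, against 10.4%). Their median log2 change was −0.022, beside 0 over all genes. Changes of at least 2-fold were called at 9 of the 158 (5.7%) and at 11.4% of all genes. The nearest genes had a higher median level, 6.25 against 4.85 log2 CPM for all genes, and the part of level in these shares was not tested. Among genes at 5 log2 CPM or more, 23 of the 123 nearest genes passed (18.7%, with 9.76% raised and 8.94% lowered), against 14.5% of 7408 (5.6% and 8.91%). With the wild-type libraries summed, 18 of the 158 passed (11.4%, 7 raised and 11 lowered), and 2164 of all genes (13.6%). Leaving out wild-type replicate 1 or 2 gave 13 each, and leaving out Pcgf3/5-/- replicate 1 or 2 gave 18 and 19.

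**Figure D4:**
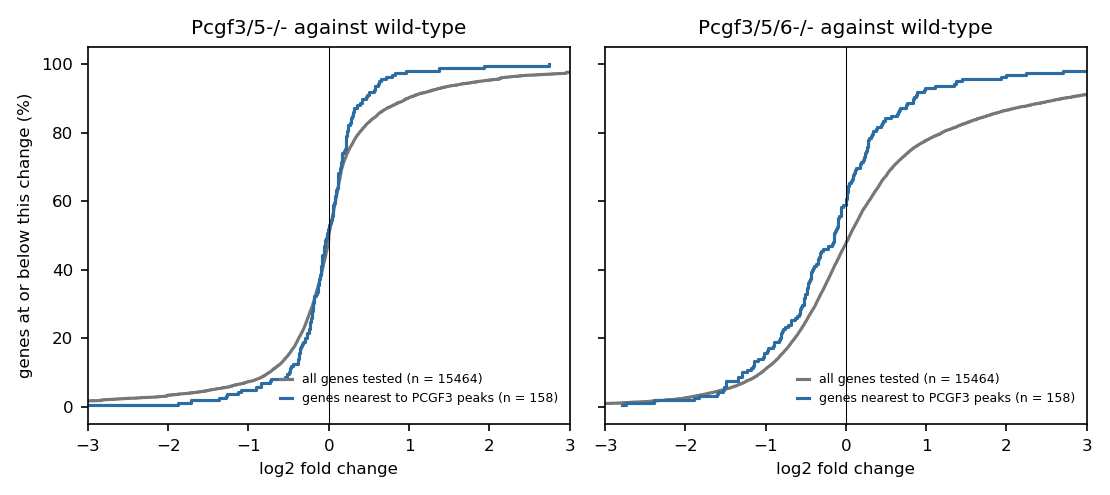
Cumulative share of genes (%) by log2 fold change against wild-type, for the 158 tested genes nearest to PCGF3 peaks and all 15464 genes tested, in Pcgf3/5-/- (left) and the libraries labelled Pcgf3/5/6-/- (right), which share the wild-type libraries. On the left the curves cross near 0 and fewer PCGF3 genes have large changes; on the right most of the curve of the PCGF3 genes lies to the left of that of all genes.

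The nearest genes were then counted by which other proteins the peak overlapped. Of 47 tested genes whose PCGF3 peak overlapped PCGF6, 16 passed (34%), 8 raised and 8 lowered. Of 112 whose peak did not (1 gene has a peak of each kind), 17 passed (15.2%), 6 raised and 11 lowered. With RING1B it was 13 of 30 (43.3%). With the wild-type libraries summed, the counts were 10 of 47 with PCGF6, 9 of 112 without it and 9 of 30 with RING1B. Leaving out wild-type replicate 1 gave 9, 5 and 7, wild-type replicate 2 gave 7, 7 and 6, Pcgf3/5-/- replicate 1 gave 10, 9 and 9, and Pcgf3/5-/- replicate 2 gave 10, 10 and 9. The difference between these sets was not tested. At the 1029 tested genes with a PCGF6 summit and no PCGF3 summit within 2.5 kb, 25.4% passed, and at the 3118 with a USF1 summit and no PCGF3 summit, 19.6%. Of the 33 genes whose peak was also called after shCtr, 5 passed (15.2%, against 21.6% of all genes tested).

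The highest PCGF3 peaks were mostly at genes that did not pass the test, as was so of all genes, of which 21.6% passed. Atp6v0b was at 143 and 147 CPM in wild-type and 157 and 200 in Pcgf3/5-/- (log2 change 0.30 ± 0.25, edgeR adjusted p = 0.471), and Cdk4 at 288 and 293 against 262 and 351, where the groups overlap. Of the genes nearest to the 10 highest peaks, Cnppd1 alone passed, at 37.1 and 39.8 against 56 and 49.1 (0.46 ± 0.12, edgeR adjusted p = 0.0172), and it did not pass with the wild-type libraries summed. The log2 changes of the other 9 ran from −0.30 at Clcn6 to 0.41 at Igf2r.

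Of the 9 lysosomal genes with a PCGF3 summit, Gla (alpha-galactosidase A) passed, at 95.3 and 91.4 CPM in wild-type and 71.9 and 66.3 in Pcgf3/5-/- (log2 change −0.43 ± 0.09, edgeR adjusted p = 0.00496). Among those that did not pass were Lamp1 at −0.06 and Ctsd at 0.22. In the whole list of 25, 2 were lowered and none raised at this threshold, with a median of 0.021. The counts of the lists stand beside 11.1% raised and 10.4% lowered over all genes. Of the 14 genes of the PCGF3/5 complex list 1 was lowered, which was Pcgf5 itself. In the PCGF6 complex list 1 of 14 was lowered, as were 1 of 21 in the ribosome biogenesis list and 1 of 17 in the mitochondrial translation list. In the E-box factor list 2 of 23 were raised and 5 lowered. Of the 20 germline genes tested 9 were raised (45%) and 4 lowered (20%). Summing the wild-type libraries gave 7 and 4, and in the E-box factor list 1 and 4. Leaving out wild-type replicate 1 or 2 gave 5 raised and 3 lowered or 6 and 5 germline genes, and 2 and 0 or 0 and 2 E-box factors. Leaving out Pcgf3/5-/- replicate 1 or 2 gave 6 and 3 or 8 and 3, and 0 and 3 or 2 and 1.

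The 10 genes of each direction with the largest change stand for the called ones. They were taken from those with no overlap between the groups and a mean log2 CPM of at least 2 over all 14 libraries. Slc36a1, a lysosomal amino acid transporter, rose the most of the raised ones: it was at 3.42 and 2.81 CPM in wild-type and 13.2 and 10.5 in Pcgf3/5-/- (log2 change 1.94 ± 0.25, edgeR adjusted p = 0.0001). Its PCGF3 peak (fold 11.67, 14 bases from the start) was listed after shCtr at 5.38 and after neither USF hairpin. Hps1, a subunit of the complex that helps form lysosome-related organelles, was at 42.9 and 49.1 against 87 and 75.4 (0.82 ± 0.19, edgeR adjusted p = 0.00814).

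The meiotic genes Stag3 and Hormad1, a cohesin subunit and a protein of the chromosome axis, both rose. Stag3 was at 87.3 and 83.3 CPM in wild-type and 137 and 131 in Pcgf3/5-/- (log2 change 0.65 ± 0.12, edgeR adjusted p = 0.00162). Hormad1 was at a mean of 71.8 ± 1.88 (SD, n = 2) against 112 ± 17.4 CPM, with a log2 change of 0.63 ± 0.15 SE. Stk31, a kinase of germ cells, rose by 0.57 ± 0.12. The other 5 raised genes were Fam178b, Akap11, Scara5, Cds2 and Fndc3a, with log2 changes of 0.48 to 0.61. Of the 10, Akap11, Scara5, Cds2 and Fndc3a did not pass with the wild-type libraries summed.

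Of the lowered genes, Rbm46, an RNA-binding protein of germ cells, had 12 and 13 counts in wild-type and 0 and 0 in Pcgf3/5-/-. That is at least 7.49-fold lower when 3 counts over both knockout libraries are taken as the floor. At 1.71 and 1.83 CPM in wild-type, Rbm46 reached the mean level set for naming only through other genotypes, such as Pcgf6-/- at 53.7 and 54.2. Mid1, a microtubule-associated ubiquitin ligase at the X-chromosome run, was at 140 and 143 CPM against 69.4 and 59.4 (−1.13 ± 0.14, edgeR adjusted p = 6.31e-05). On the opposite strand 6 genes overlap Mid1 in the annotation, and whether counting used strand is not given in the sources used here. Genes on the other strand also overlap Hps1, Fam178b, Stk31, Fndc3a, Zcwpw1, Atp6v0b, Cdk4, Igf2r, Ctsa, Lamp1, Clcn6, Pcgf5 and Usf2, and genes on the same strand overlap Frmd4b, Ctsd, Usf1 and 6430548M08Rik, so reads of these pairs may not be told apart.

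Socs2, a suppressor of cytokine signalling, was at 111 and 116 against 64.7 and 61.7 (−0.84 ± 0.13, edgeR adjusted p = 0.000617). Dtx1, a regulator of Notch signalling, was at 21.8 and 22.5 against 9.89 and 8.25 (−1.27 ± 0.24, edgeR adjusted p = 0.00213). Zcwpw1, the germline gene with PCGF6 and no USF1 peak, fell, from 38.5 and 36.7 to 25.7 and 19.4 (−0.72 ± 0.15, edgeR adjusted p = 0.00431). Hormad1, Stag3 and Stk31, the other 3 genes of the germline list with a PCGF3 summit, rose. The part of USF1 in these directions was not tested. The other 5 lowered genes were Ccdc9, 0610040J01Rik, Fbxo33, Frmd4b and P2rx7, with log2 changes of −1.37 to −0.73. All 10 lowered genes also passed with the wild-type libraries summed.

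**Figure D5:**
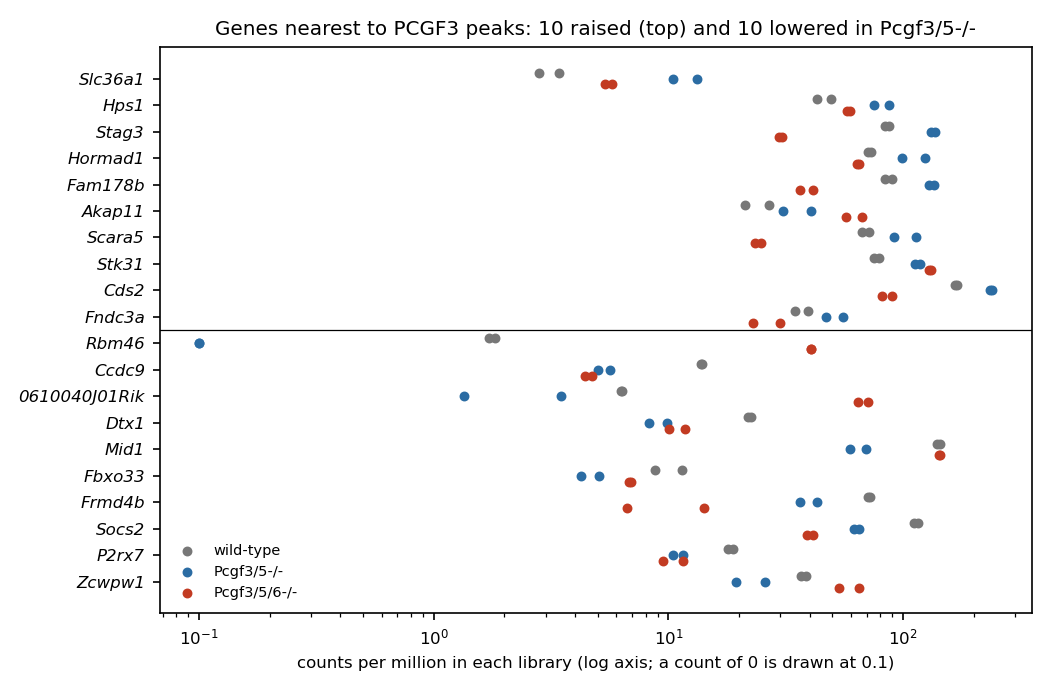
CPM in each of the 2 libraries per genotype (log axis, 0 drawn at 0.1) for the 10 raised and 10 lowered genes nearest to PCGF3 peaks. The wild-type and Pcgf3/5-/- points do not overlap in any row, by the choice of genes; Rbm46 is at 0 in Pcgf3/5-/- and at 40.4 and 40.6 in the libraries labelled Pcgf3/5/6-/-.

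In the authors' deposited table of Pcgf3/5-/- against wild-type, 2 of the 160 genes were marked as changed, out of 480 raised and 298 lowered in all. The 2 were 6430548M08Rik, with a log2 change of 2.78 in that table, and Rbm46, with −5.9. 6430548M08Rik was at 0.285 and 0.422 CPM in wild-type and 3.21 and 1.53 in Pcgf3/5-/-. At an adjusted p of 0.05 alone, the authors' deposited table had 15 of the 160 raised and 15 lowered. The shares of all genes in that table, as marked or at this threshold, are not given here. The counts of the 160 are thus not set against a background.

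In the libraries labelled Pcgf3/5/6-/-, more of the genes near PCGF3 peaks were lowered than raised. The targeted genes did not differ from wild-type there at the threshold. Pcgf6 was at 42 and 37.2 CPM, against 36.2 and 34.3 in wild-type (log2 change 0.17, edgeR adjusted p = 0.338) and 0 and 0 in Pcgf6-/-. Pcgf5 was at 16.4 and 13.5 (0.33, edgeR adjusted p = 0.206) and Pcgf3 at 13.6 and 13.5 (−0.23, edgeR adjusted p = 0.448). The counts per gene thus do not show the loss that the label names, and the directions below are those of the libraries so labelled. Compared with the same wild-type libraries, 83 of the 158 genes passed (52.5%, against 53.3% of all genes), of which 22 were raised (13.9%, against 28% of all) and 61 lowered (38.6%, against 25.3%). With the wild-type libraries summed, 18 were raised (11.4%, against 25% of all genes) and 52 lowered (32.9%, against 21%). The median log2 change was −0.148, beside 0.048 over all genes. With cyclic loess offsets the split was 39 raised and 56 lowered. The shares of all genes under these offsets are not given here, so that split is not set against a background. With DESeq2 both medians moved up, to −0.064 and 0.164. The level of the genes goes with this split: genes near PCGF3 peaks had a median of 6.25 log2 CPM against 4.85 for all genes, and among all 7408 genes at 5 log2 CPM or more, 13.5% were raised and 35.7% lowered, beside 9.76% and 43.1% of the 123 nearest genes at that level. The part of expression level in the split was not tested. In these libraries the summed trophoblast markers were higher and Cdx2 lower, as given above, the primitive endoderm markers summed to 41.4 and 52.7 CPM, nearly all of it Dab2, and the fibroblast markers to 37 and 34.8. Their part in the result was not tested.

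The lowered ones in these libraries were mostly at peaks without PCGF6. Of 112 genes at such peaks, 51 were lowered and 9 raised, and of 47 at peaks with PCGF6, 10 were lowered and 13 raised. After summing the wild-type libraries these were 42 and 5, and 10 and 13. At genes with a USF1 summit and no PCGF3 summit 30.2% were lowered and 21.9% raised, and at genes with PCGF6 and no PCGF3 17.5% and 41.6%. Hexa was at 223 and 231 CPM in wild-type and 96.4 and 103 in those labelled Pcgf3/5/6-/- (log2 change −1.18, edgeR adjusted p = 0.000452), and 232 and 274 in Pcgf3/5-/-. Ctsa was at 200 and 209 against 100 and 100 (−1.02, edgeR adjusted p = 0.000302). In the whole lysosome list 5 of 25 were raised (20%, against 28% of all genes), among them Ctsd (269 and 275 against 426 and 440), and 11 lowered (44%, against 25.3%). After summing the wild-type libraries these were 3 and 10. In Pcgf6-/- Hexa was at 121 and 122 CPM, Ctsa at 129 and 132 and Ctsd at 250 and 265, which was not tested.

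Rbm46 and 0610040J01Rik, lowered in Pcgf3/5-/-, were far above wild-type in the libraries labelled Pcgf3/5/6-/-, at 40.4 and 40.6 and at 71.1 and 64.2 CPM. Stag3 went the other way, from 137 and 131 in Pcgf3/5-/- to 30.6 and 29.7. The difference between the 2 labelled genotypes was not tested. Mid1 was at 144 and 142 CPM in the libraries labelled Pcgf3/5/6-/-, beside 140 and 143 in wild-type. In Pcgf6-/- Rbm46 was at 53.7 and 54.2 CPM and 0610040J01Rik at 123 and 121. Stag3 was at 67.6 and 57.3 there and Mid1 at 55.7 and 53, and these differences were not tested.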

How the data were processed

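ChIP-seq and RNA-seq were analysed from the deposited files of 80 peak lists and 14 RNA libraries. Per the submitters' processing notes, reads were handled with Bowtie 1.2.2, TopHat2 2.1.1, MACS2 2.1.1, HTSeq 0.7.2 and DESeq2 on mm9. The authors' peak lists give a fold ratio over control, a −log10 p and a −log10 q per peak; the depth behind them is unknown. RNA values are the authors' raw counts per gene, and the authors' deposited comparison table gives log2 fold changes and adjusted p-values. Peaks were compared by an overlap of at least 1 base. Starts came from GENCODE M1 (NCBIM37), with 842 of 20411 matched protein-coding genes linked to the count table through an older symbol. Promoters were taken as 2.5 kb around a start, and motifs were searched in the mm9 sequence.

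Counts were fitted with edgeR 4.0.16 (quasi-likelihood, TMM, filterByExpr, all 14 libraries, 15464 genes), with an adjusted p under 0.05 as the threshold. DESeq2 1.42.0, other scalings and filters, other distances and left-out libraries were tried as alternatives. The fit was tested on simulated data. Named genes were those nearest to the 10 highest peaks, to peaks in the Pcgf3/5-/- and shUsf1 lists, and the 10 raised and 10 lowered with the largest change. The gene lists were the PCGF3/5 complex, PCGF6 complex, E-box factors, lysosome and V-ATPase, ribosome biogenesis, mitochondrial translation and germline. The replicate numbers were not used to pair samples, and 0 columns of per-sample values were left unmapped. The peaks and lists were chosen with earlier results of these data known, so a list is not independent support. The lysosomal and Zcwpw1 sequences were chosen after their values were seen. Values of some peaks and genes are not reported here.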

Additional observations from a re-analysis of the deposited data

Results flagged for a closer look

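A pair of lists that the comparisons above do not use covered many more PCGF3 peaks than the wild-type list of the same antibody. The Pcgf6 list of Pcgf1-/- overlapped 187 of the 223 peaks (83.9%), against 75 in wild-type, and held 5528 peaks against 1868. The H2AK119Ub1 list of Pcgf3/5-/- overlapped 137 (61.4%), against 13 in wild-type, and held 128786 peaks against 1741. Each is 1 library, and the part of list size in these shares was not tested.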

How the results depend on the processing

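Of 132 alternative values of shares and counts, 95 stayed within the Wilson interval or 1.5 times the main count, and for the other 37 the cause was not tested unless the alternative itself leaves fewer peaks or libraries. Without the runs of neighbouring peaks (chosen after seeing the data), the share of PCGF3 peaks was 4.52% in the Pcgf3/5-/- list, 1.51% after shUsf1, 0% after shUsf2, 96.5% with USF1, 88.9% with H3K4me3, 3.02% with H3K36me3 and 72.9% with an E-box. With other lists held to −log10 p of 20 (also added later) it was 2.69% in Pcgf3/5-/-, 4.48% after shCtr, 1.35% after shUsf1, 0% after shUsf2, 19.7% with PCGF6, 15.2% with RING1B and 77.6% with H3K4me3. Among peaks above the median fold, 37.7% were in shCtr, 99.1% had USF1, 90.6% H3K4me3 and 4.72% H3K36me3. Of their nearest genes, 17 were called for the Pcgf3/5-/- comparison, and 42 for that of the Pcgf3/5/6-/- label. The number tested is not given here, so these counts are not set against the 21.6% and 53.3% called over all genes. Without the peaks of the Pcgf3/5-/- list, 0% were in shUsf2 and 3.94% had H3K36me3. At −log10 q of 5 shUsf2 held 0%. H3K4me3 covered 79.4% under a stricter overlap (at least 50% of the peak, or its summit, inside). The E-box share was 81.6% within 150 bases of the summit and 82.5% over whole peaks.

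For Pcgf3/5-/-, leaving out 1 library gave 1602 to 2112 called genes against 3333, and 13 to 19 nearest genes against 32. The lowest were without wild-type replicate 2 (1602 and 13) and without wild-type replicate 1 (1712 and 13), and without Pcgf3/5-/- replicate 1 or 2 the counts were 1856 and 18 and 2112 and 19. The lone library is then assumed to vary like the others. With the wild-type libraries summed, the counts were 2164 and 18. For the libraries labelled Pcgf3/5/6-/-, leaving out 1 library gave 6578 to 6812 genes and 63 to 68 nearest genes, against 8241 and 83. The replicate numbers did not pair the samples (correlations of deviations 0.0319 and 0.0131), and with the number as a replicate block 2921 genes and 30 nearest genes were called in Pcgf3/5-/- and 7931 and 81 in those labelled Pcgf3/5/6-/-. Of the 20 genes named by size, 9 passed in all 12 alternatives: Ccdc9, Dtx1, Fam178b, Mid1, Rbm46, Slc36a1, Socs2, Stag3 and Zcwpw1. None of the 20 changed sign. Among genes that did not pass, some changed sign when 1 library was left out, with log2 changes over those fits of −0.25 to 0.031 for Usf2, −0.15 to 0.27 for Cdk4, −0.13 to 0.23 for Bax, −0.51 to 0.082 for Zbtb40, −0.16 to 0.16 for Lamtor1, −0.038 to 0.22 for Rpp21, −0.042 to 0.28 for Atp6v1c1, −0.1 to 0.034 for Ctsa and −0.025 to 0.19 for Mcoln1. Lamtor1 was also at −0.018 with no filter and at −8.1e-05 with cyclic loess offsets.

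The peak lists carry no depth, so an absent peak is one not called in that library, and no interval covers differences between immunoprecipitations.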
